A study of Mus musculus with 6 samples.

Results

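The 10 genes described here encode inhibitors that cells make in response to FGF and other receptor tyrosine kinase signals. They are the Sprouty genes Spry1, Spry2 and Spry4, the related Spred1, Spred2 and Spred3, the dual-specificity phosphatases Dusp4, Dusp5 and Dusp6, and Il17rd, also called Sef. They were taken by gene symbol from the 37991 genes of the count files, in which each symbol occurred once, and all 10 had reads in every library and passed the filter on low counts that left 21983 genes for testing. RNA-seq libraries had been made from the dorsal telencephalon, the embryonic forebrain wall that becomes neocortex and hippocampus, of single CD1 mouse embryos at E13.5. In 3 embryos, numbered 6, 7 and 8, 100 ng of FGF2 had been injected into the brain ventricles, and in the 3 control embryos, numbered 7, 8 and 9, the vehicle alone, PBS with 0.1% BSA. The embryos carried no engineered allele per the labels, the RNA came from fixed frozen sections taken in front of the hippocampus, and the labels do not state how long after injection the tissue was collected.

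When FGF binds its receptor, the adaptor Frs2 and the Ras, Raf and Mek proteins pass the signal to the ERK kinases, which enter the nucleus and change transcription. Among the genes switched on are inhibitors of the same chain. Sprouty and Spred proteins act at the level of Ras and Raf, Il17rd is a membrane protein that restrains FGF receptor signalling, and the Dusp proteins remove the activating phosphates from ERK. In the early forebrain, several of these genes are transcribed around the rostral midline, where Fgf8 and Fgf17 are produced, and they are widely used as readouts of FGF activity.

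Before the results, some features of the libraries bear on every value below. Total counts ran from 61489462 to 81532334 alignments per library. Counts of vehicle 9 were even wherever they were above 0; in the other 5 libraries 51% to 51.9% of such counts were. The read numbers of vehicle 9 may therefore count each read or pair more than once, and they are printed as deposited; CPM and ratios do not depend on such a factor. The 3 FGF2 embryos and vehicle 7 had 10475 to 16232 reads of Y-linked genes, whereas vehicle 8 and vehicle 9 had 22 each, so vehicle 7 was the only male control. FGF2 8 stood apart from the other FGF2 embryos, with a quality weight of 0.218 against 0.912 to 1.89 for the other 5 libraries when limma estimated 1 weight per library. All 9 markers of dorsal telencephalon were present in every library, with summed levels of 1994 to 2050 CPM (counts scaled to a common library size, with TMM factors) in FGF2 embryos and 2660 to 2823 CPM in vehicle embryos. Of these 9, 4 were called as lower in FGF2 embryos (Neurog2, Pax6, Eomes and Emx1, named after their values were seen) and 0 as higher.

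Spry1, Spry2 and Dusp6 were higher in the FGF2 embryos past an adjusted p of 0.05, none of the 10 genes was lower past it, and 7 did not pass. By the same test 3.63% of all genes were called, 2.68% as higher and 0.951% as lower. The fold changes of the called genes were 4.24 for Spry1, 1.68 for Spry2 and 1.74 for Dusp6. The median log2 fold change of the 10 genes was 0.72, against 0.01 over all genes tested. CPM values of the 3 FGF2 embryos all lay above those of the 3 vehicle embryos for 5 of the genes (Spry1, Spry2, Spry4, Dusp5 and Dusp6), and all lay below for Spred2 and Dusp4. Over all genes tested, 14.6% had no overlap in the upward direction and 13.6% in the downward direction.

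**Figure D1:**
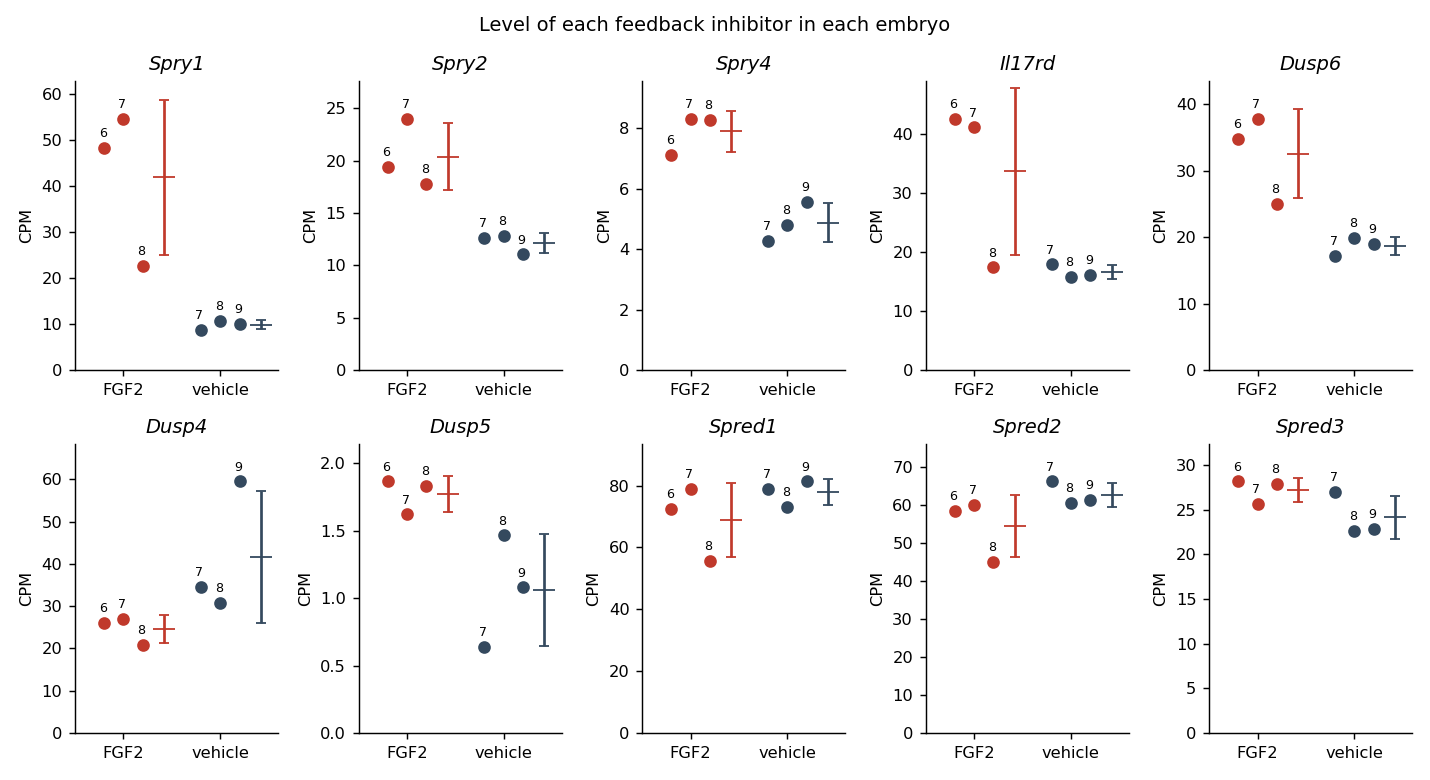
Level of each of the 10 genes in each embryo, in CPM on axes that start at 0, with embryo numbers beside the points and the mean ± SD (n = 3) to the right of each group. FGF2 embryos 6 and 7 stand highest for Spry1, Il17rd and Dusp6, with FGF2 8 between them and the vehicle embryos for Spry1 (22.7 CPM) and Dusp6 (25.0 CPM) and among the vehicle embryos for Il17rd (17.4 CPM).

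The sequences just upstream of the 3 called genes are shown because these genes were higher together and ERK acts on many genes through ETS factors, which bind around a GGAA core. Each is the 250 bases before the gene's start, from RefSeq on GRCm38.p6, on the gene's own strand. Capitals mark CGGAA and AGGAAG on either strand (TTCCG and CTTCCT on the other). The windows are chr3:37639697-37639946 (plus strand) for Spry1, chr14:105896820-105897069 (minus strand) for Spry2 and chr10:99262981-99263230 (plus strand) for Dusp6.
Spry1: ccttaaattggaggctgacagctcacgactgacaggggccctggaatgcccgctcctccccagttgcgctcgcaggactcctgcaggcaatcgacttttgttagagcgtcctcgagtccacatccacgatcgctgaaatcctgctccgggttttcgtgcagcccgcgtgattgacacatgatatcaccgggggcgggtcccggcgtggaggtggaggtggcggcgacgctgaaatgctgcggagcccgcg
Spry2: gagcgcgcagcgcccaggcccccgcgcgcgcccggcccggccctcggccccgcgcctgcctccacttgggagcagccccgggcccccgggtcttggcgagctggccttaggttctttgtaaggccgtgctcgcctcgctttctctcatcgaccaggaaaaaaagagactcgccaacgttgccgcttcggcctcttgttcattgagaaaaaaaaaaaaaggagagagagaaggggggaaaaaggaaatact
Dusp6: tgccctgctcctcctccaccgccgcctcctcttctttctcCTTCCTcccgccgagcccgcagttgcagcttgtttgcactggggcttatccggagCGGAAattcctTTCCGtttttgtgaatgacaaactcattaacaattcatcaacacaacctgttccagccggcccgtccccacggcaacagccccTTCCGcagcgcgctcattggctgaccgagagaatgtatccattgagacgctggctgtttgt
The Dusp6 window held 3 copies of CGGAA, beginning 155, 144 and 61 bases before the start, and 1 of AGGAAG. The windows of Spry1 and Spry2 held neither of these longer strings, but both hold the shorter core GGAA, which was not marked. CGGAA was found in 25.2% and AGGAAG in 29.5% of the 32851 windows of this length in the table. Spry4 and Dusp4 had no window here. Of the 8 members with a window, 5 held CGGAA, namely Dusp5, Dusp6, Il17rd, Spred1 and Spred2, and 3 held AGGAAG. Of those 5, only Dusp6 was called. A match here is a description of letters, and a window without one says only that these letters are not in it.

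Spry1 lies on chromosome 3 (37538869 to 37543520, NCBIM37), and its span of 4652 bases overlapped no other listed gene, as was true of all 10 members. It had 4059, 3870 and 1460 reads in FGF2 embryos 6, 7 and 8, against 538, 718 and 632 reads in vehicle embryos 7, 8 and 9. Scaled to library size these were 48.2, 54.6 and 22.7 CPM in FGF2 embryos, against 8.80, 10.7 and 10.03 CPM in vehicle embryos. Every FGF2 embryo was above every vehicle embryo, and FGF2 8 had less than either of the others. The log2 fold change was 2.09 ± 0.30 (SE, edgeR adjusted p = 0.0132), which ranked 272 among all genes by p. Relative to the geometric mean of the vehicle embryos, Spry1 stood at 4.91, 5.55 and 2.31 times in FGF2 6, 7 and 8.

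Spry2, which like Spry1 damps Ras activation, lies on chromosome 14 (106291166 to 106296036, NCBIM37). It had 1633, 1702 and 1142 reads in FGF2 embryos, against 770, 854 and 696 in vehicle embryos. The scaled values were 19.4, 24.0 and 17.8 CPM in FGF2 embryos, against 12.6, 12.8 and 11.05 CPM in vehicle embryos. All FGF2 embryos were higher, with a smaller step than in Spry1 and with FGF2 8 close to FGF2 6. Spry2 changed by 0.75 ± 0.14 on the log2 scale (SE, edgeR adjusted p = 0.0303).

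Spry4 stood at 7.12, 8.32 and 8.27 CPM in FGF2 embryos, against 4.27, 4.82 and 5.56 CPM in vehicle embryos. The groups did not overlap, and here FGF2 8 was level with FGF2 7. Its log2 fold change of 0.69 ± 0.16 (SE) missed the threshold with edgeR (adjusted p = 0.0595). It passed in 4 of 19 alternative analyses, among them DESeq2 (adjusted p = 0.00124) and voom with library weights (adjusted p = 0.017). These 2 analyses called 9.76% and 10.2% of all genes, against 3.63% in the main test. Over its 19 alternatives the adjusted p of Spry4 was 0.00124 to 0.569.

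The Sprouty genes could be compared with each other inside each library, where scaling plays no part. Spry1 had 2.49, 2.27 and 1.28 reads per Spry2 read in FGF2 embryos 6, 7 and 8, against 0.699, 0.841 and 0.908 in vehicle embryos 7, 8 and 9. The log2 ratio was 1.25 higher in FGF2 embryos, without overlap of the groups (exact permutation test, two-sided p = 0.1, adjusted p = 0.133 over 4 ratios). The log2 ratio of Spry1 to Spry4 was 1.29 higher in FGF2 embryos (exact permutation p = 0.1, adjusted p = 0.133). Both p-values are the smallest that 3 against 3 embryos allow, so this exact test could not call a ratio whatever the values, and the ratios are given as a description. The log2 ratio of Spry2 to Spry4 was 1.36 ± 0.23 in FGF2 embryos and 1.32 ± 0.29 in vehicle embryos (SD, n = 3 each, exact permutation p = 0.8, adjusted p = 0.8), so the groups overlapped for this pair.

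Il17rd, the membrane inhibitor, divided the FGF2 embryos. Its values were 42.5, 41.0 and 17.4 CPM in FGF2 embryos 6, 7 and 8, against 17.9, 15.8 and 16.1 CPM in vehicle embryos 7, 8 and 9. FGF2 6 and 7 were far above the controls, and FGF2 8 lay between the vehicle values. The log2 fold change was 1.02 ± 0.31 (SE) and did not pass with edgeR (adjusted p = 0.126). Without FGF2 8 it was 1.33 and passed (adjusted p = 0.000267), and it also passed with voom and library weights (adjusted p = 0.0103) and with DESeq2 (adjusted p = 0.0102), over a range of 0.000267 to 0.86 for its 19 alternatives.

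Among the phosphatases, Dusp6, a cytoplasmic enzyme selective for ERK, was the one called. The gene lies on chromosome 10 (98725865 to 98730122, NCBIM37) and had 2923, 2682 and 1608 reads in FGF2 embryos, against 1053, 1327 and 1194 in vehicle embryos. Its levels were 34.7, 37.8 and 25.0 CPM in FGF2 embryos, against 17.2, 19.9 and 19.0 CPM in vehicle embryos. The groups did not overlap, and FGF2 8 was again the lowest of its group. Dusp6 changed by 0.80 ± 0.16 on the log2 scale (SE, edgeR adjusted p = 0.0372).

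Dusp5, a nuclear ERK phosphatase, was the least abundant member, with 157, 115 and 118 reads in FGF2 embryos, against 39, 98 and 68 in vehicle embryos. It stood at 1.87, 1.62 and 1.83 CPM in FGF2 embryos, against 0.638, 1.47 and 1.08 CPM in vehicle embryos. The FGF2 embryos were close together and all higher, whereas vehicle 8 came near them. The log2 fold change of 0.74 ± 0.32 (SE) did not pass with edgeR (adjusted p = 0.255). It was 0.47 without vehicle 7, 1.04 without vehicle 8 and 1.47 with sex as a covariate, and passed in none of these (adjusted p = 0.517, 0.255 and 0.324, within 0.141 to 0.832 over its 17 alternatives).

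Dusp4, a nuclear phosphatase that acts on ERK and related kinases, pointed the other way. It stood at 25.9, 27.0 and 20.9 CPM in FGF2 embryos, against 34.6, 30.8 and 59.5 CPM in vehicle embryos. All FGF2 embryos were lower, and vehicle 9 was well above the other controls. The log2 fold change was -0.76 ± 0.25 (SE, edgeR adjusted p = 0.147). It was -0.41 without vehicle 9. DESeq2 called Dusp4 as lower (adjusted p = 0.0248), and the adjusted p was 0.0248 to 0.867 over its 19 alternatives.

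The proportion of Dusp6 to Dusp4 was also taken inside each library. There were 1.34, 1.40 and 1.20 Dusp6 reads per Dusp4 read in FGF2 embryos 6, 7 and 8, against 0.498, 0.644 and 0.319 in vehicle embryos 7, 8 and 9. The log2 ratio was 1.49 higher in FGF2 embryos, with no overlap (exact permutation p = 0.1, adjusted p = 0.133), and the test could not have gone below that p. In this ratio FGF2 8 was close to the other FGF2 embryos.

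The Spred genes, whose products bring neurofibromin to the membrane to switch off Ras, did not pass in either direction. Spred1 stood at 72.4, 78.9 and 55.6 CPM in FGF2 embryos, against 78.9, 73.2 and 81.3 CPM in vehicle embryos. Spred2 stood at 58.3, 60.1 and 45.0 CPM in FGF2 embryos, against 66.1, 60.5 and 61.2 CPM in vehicle embryos. FGF2 8 had the lowest value of both genes. Their log2 fold changes were -0.17 ± 0.13 and -0.20 ± 0.12 (SE, edgeR adjusted p = 0.503 and 0.396). Without FGF2 8 they were -0.04 and -0.08, and without FGF2 7 they were -0.28 and -0.28.

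Spred3, the member of the family most restricted to brain, was at 28.2, 25.7 and 27.9 CPM in FGF2 embryos, against 27.0, 22.6 and 22.9 CPM in vehicle embryos. Vehicle 7 lay among the FGF2 embryos. Its log2 fold change was 0.17 ± 0.10 (SE, edgeR adjusted p = 0.404). Spred1 and Spred2 had the most similar profiles of any 2 members, with a root mean square difference of 0.0569 in centred log2 CPM over the 6 embryos. The next pair was Spry2 and Dusp6 at 0.137, and the least similar was Spry1 and Dusp4 at 1.38.

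**Figure D2:**
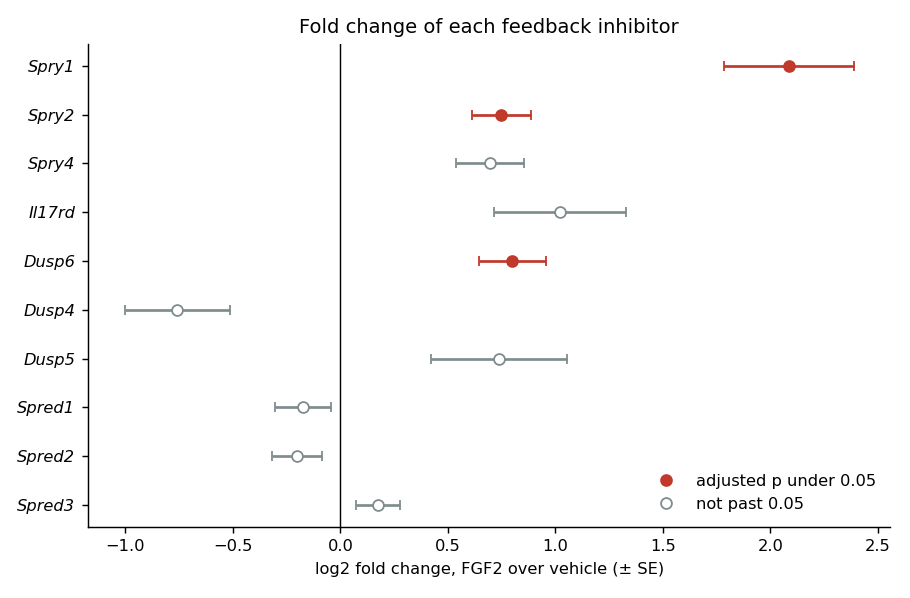
Log2 fold change of each gene, FGF2 over vehicle, with bars of 1 SE from edgeR's fit to all 21983 genes. Filled points passed an adjusted p of 0.05. Spry1 lies at 2.09, Spry2 and Dusp6 lie at 0.75 and 0.80, and the 3 Spred genes lie between -0.20 and 0.17.

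Levels of different genes can be compared only per length, for which the deposited RPKM values (reads scaled to gene model length and to library size) were used. Spry1 had the highest mean RPKM of the 10 genes in FGF2 embryos and the seventh highest in vehicle embryos, at 13.1 ± 5.39 and 3.16 ± 0.372 RPKM (SD, n = 3 each). Dusp6 stood at 12.2 ± 2.76 RPKM in FGF2 embryos and 6.83 ± 0.389 in vehicle embryos, and Spry2 at 10.03 ± 1.68 and 5.92 ± 0.479. The most abundant members in vehicle embryos were Dusp4, at 9.19 ± 1.26 RPKM in FGF2 embryos and 15.2 ± 5.84 in vehicle embryos, Spred2, at 11.7 ± 1.86 and 13.2 ± 0.581, and Spred1, at 10.98 ± 2.02 and 11.9 ± 0.624.

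At the low end were Spred3, at 4.83 ± 0.200 RPKM in FGF2 embryos and 4.16 ± 0.428 in vehicle embryos, and Il17rd, at 3.94 ± 1.74 and 1.86 ± 0.165. Spry4 followed at 1.84 ± 0.143 RPKM in FGF2 embryos and 1.09 ± 0.127 in vehicle embryos, and Dusp5 at 0.756 ± 0.0578 and 0.445 ± 0.163. In vehicle embryos, neighbours in the order from Spred2 down to Dusp5 did not overlap in range, while Dusp4 overlapped Spred2 (11.1 to 21.9 against 12.7 to 13.8 RPKM). Tested as log2(RPKM + 1) with limma, where 3.11% of 13894 genes were called and 2.29% as higher, Spry1 and Spry2 passed (adjusted p = 0.0339 and 0.0395), with log2 fold changes of 1.68 and 0.66 on that scale. Dusp6 and Spry4 fell just short (adjusted p = 0.06 and 0.0577), and Dusp5 did not reach the minimum of 1 RPKM.

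The calls of Spry1, Spry2 and Dusp6 depended on which embryos were kept. Without any 1 vehicle embryo none of the 3 passed with edgeR (adjusted p up to 0.0834, 0.124 and 0.163). Calls over all genes also fell in these fits, to 1.07%, 0.971% and 1.36% without vehicle 7, 8 and 9, against 3.63% with all 6 embryos. In the same 3 fits 6, 7 and 6 members had an unadjusted p under 0.05 (edgeR), against 7 with all 6 embryos. Without FGF2 6 or FGF2 7 only Spry1 passed (2.31% and 1.82% of all genes called). Without FGF2 8 all 3 passed (8.68% of all genes called). With sex as a covariate, no member passed and 5 of all genes did. In that fit Spry1, Spry2 and Dusp6 had log2 values of 2.25, 0.69 and 0.92 (adjusted p = 0.238, 0.448 and 0.334). No FGF2 embryo was female, so in that fit vehicle 7, the male control, was the only control behind the FGF2 contrast. Vehicle 8 and vehicle 9 add nothing to it, and the part of sex in the calls was not tested.

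**Figure D3:**
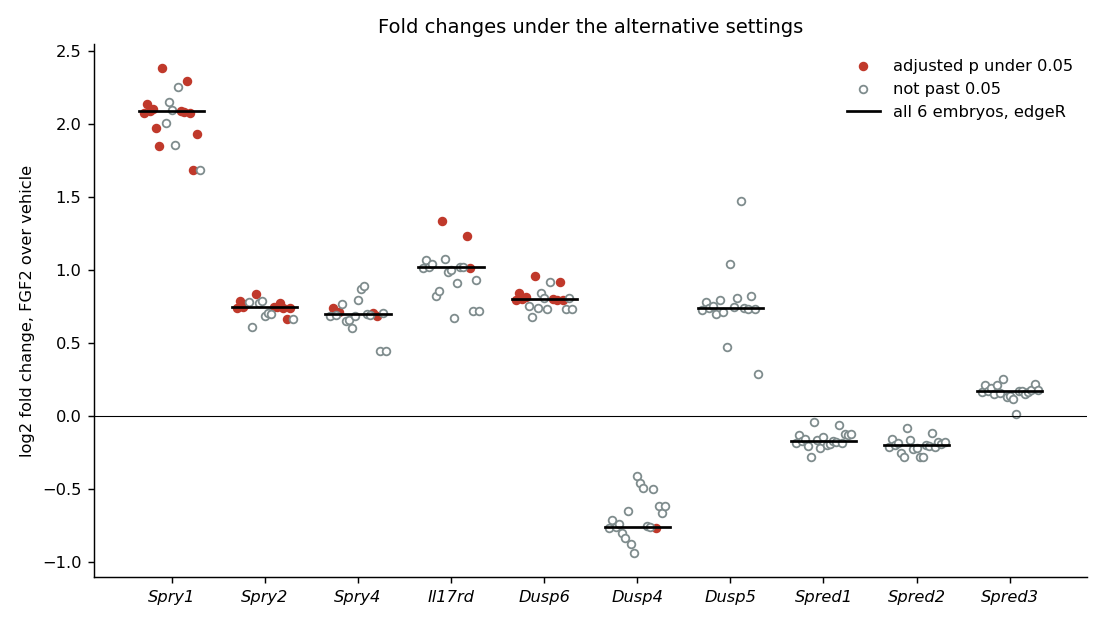
Log2 fold change of each gene, FGF2 over vehicle, in the fit of all 6 embryos (black line) and in the alternative analyses (points), filled where the adjusted p was under 0.05. No member changed direction, and the values ran from 1.68 to 2.38 for Spry1, 0.61 to 0.84 for Spry2 and 0.68 to 0.96 for Dusp6.

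Genes that mark neighbouring regions also differed between the groups. The 5 markers listed for the rostral midline, the normal FGF source of this tissue, were Fgf8, Fgf15, Fgf17, Fgf18 and Shh, which is not an FGF. Of these 5, 4 were called as higher, namely Fgf15, Fgf17, Fgf8 and Shh. The list summed to 63.3 to 115 CPM in FGF2 embryos and 5.30 to 8.03 CPM in vehicle embryos, with Fgf15 its largest part in every embryo. Whether these genes mark the rostral midline alone in these sections was not tested. The ligand Fgf15 stood at 54.7, 66.9 and 45.6 CPM in FGF2 embryos 6, 7 and 8, against 4.22, 5.71 and 3.02 CPM in vehicle embryos. Fgf17 stood at 35.4, 27.8 and 11.5 CPM in FGF2 embryos 6, 7 and 8, against 0.932, 0.479 and 0.667 CPM in vehicle embryos. Fgf8 stood at 7.83, 14.8 and 1.82 CPM in FGF2 embryos, against 0, 0.180 and 0 CPM in vehicle embryos. Fgf18, which was not called, stood at 1.99, 2.62 and 2.61 CPM in FGF2 embryos, against 0.949, 1.66 and 1.59 CPM in vehicle embryos. Shh stood at 2.82, 2.78 and 1.73 CPM in FGF2 embryos, against 0, 0 and 0.0317 CPM in vehicle embryos. FGF2 8 was the lowest FGF2 embryo for Fgf15, Fgf17, Fgf8 and Shh, and for Spry1, Spry2, Il17rd and Dusp6. It was also the lowest for Spred1, Spred2 and Dusp4, whose log2 fold changes were below 0. It was not the lowest for Fgf18, Spry4, Spred3 or Dusp5. Of 7 markers of the cortical hem, a signalling centre of the medial edge, 5 were called as higher. The list summed to 176, 142 and 75.1 CPM in FGF2 embryos, against 46.9 to 47.8 CPM in vehicle embryos. Msx1 and Bmp4, which were not called, made up most of the vehicle sum. Msx1 stood at 41.8, 26.2 and 17.2 CPM in FGF2 embryos, against 26.3, 25.0 and 25.8 CPM in vehicle embryos. Bmp4 stood at 16.6, 16.3 and 11.02 CPM, against 12.4, 12.3 and 11.11 CPM. In FGF2 8 these 2 genes lay below every vehicle embryo.

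Other lists moved with the groups in another order of embryos. The 13 ventral telencephalon markers summed to 606, 716 and 836 CPM in FGF2 embryos 6, 7 and 8, against 71.0 to 188 CPM in vehicle embryos, with 10 called as higher and Gsx1 at 0 in every vehicle embryo. The 6 choroid plexus markers, all called as higher, summed to 158, 221 and 478 CPM in FGF2 embryos, against 1.30 to 2.68 CPM in vehicle embryos. In both lists FGF2 8 was the highest. The 5 diencephalon markers, 3 of them called as higher, summed to 112 to 270 CPM in FGF2 embryos, against 71.3 to 80.3 CPM in vehicle embryos.

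Markers of cells outside the neural tube were present in both groups. The 7 endothelial markers, led by Cdh5 and Kdr, summed to 196 to 219 CPM in FGF2 embryos and 183 to 209 CPM in vehicle embryos, with none called. The 8 meningeal and mesenchymal markers, led by Col1a1 and Col1a2, summed to 2190 to 2438 CPM in FGF2 embryos and 3528 to 4048 CPM in vehicle embryos, with 1 higher and 2 lower. The 6 microglial markers, led by Csf1r, summed to 95.0 to 110 CPM in FGF2 embryos and 61.2 to 74.9 CPM in vehicle embryos, with 2 higher. No marker of these 3 lists was at 0 in every library. Whether this RNA came from other regions in the sections or from the dorsal tissue itself was not tested, nor was the part of any of these regions or cells in the levels of the feedback inhibitors, and in bulk RNA more cells of a type and more RNA per cell cannot be told apart.

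**Figure D4:**
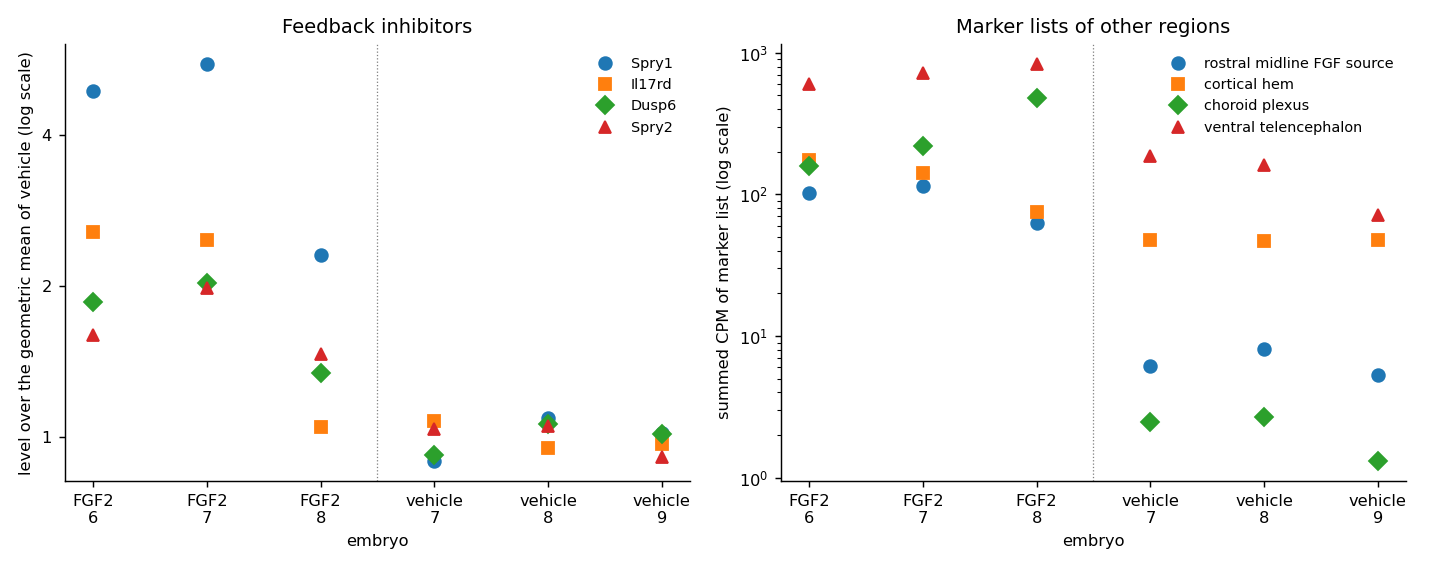
Left, Spry1, Il17rd, Dusp6 and Spry2 in each embryo relative to the geometric mean of the vehicle embryos (log axis). Right, summed CPM of 4 marker lists in the same embryos (log axis). FGF2 8 is the lowest FGF2 embryo for the 4 genes and for the rostral midline and hem lists (63.3 and 75.1 CPM). It is the highest for the ventral telencephalon and choroid plexus lists (836 and 478 CPM). Spred1, Spred2 and Dusp4, which are not plotted, were also lowest in FGF2 8 among the FGF2 embryos.

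The kinase chain on which these inhibitors act gave 1 call. Of 18 tested genes from adaptor to ERK, none was higher, 1 was lower and 17 did not pass, and the median log2 fold change was -0.08. The one called was Gab1, a docking protein that links receptors to Ras and PI3 kinase signalling, at 40.3, 42.6 and 35.9 CPM in FGF2 embryos, against 57.3, 58.5 and 50.5 CPM in vehicle embryos (log2 fold change -0.48, edgeR adjusted p = 0.0404). Of the FGF receptors, with 5 identifiers tested for 4 genes, none passed (median log2 fold change -0.13), and the span listed for Fgfr2 overlaps 41 others.

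Other inhibitors and targets of the pathway gave 1 call. Sulf1, an extracellular enzyme that trims sulfates from heparan sulfate and so limits FGF binding, was higher, at 68.7, 67.8 and 38.4 CPM in FGF2 embryos, against 8.87, 8.35 and 8.92 CPM in vehicle embryos (log2 fold change 2.74, edgeR adjusted p = 0.00166). Its FGF2 values were all above the controls with FGF2 8 the lowest, as in Spry1. The other 15 tested negative regulators of receptors and Ras did not pass, and the median of the 16 was -0.11. Of the other MAPK phosphatases, 9 identifiers of 8 genes, none passed (median 0.14), the smallest p belonging to Dusp14, at 10.83 ± 1.496 CPM in FGF2 embryos and 14.7 ± 0.0189 CPM in vehicle embryos (edgeR adjusted p = 0.115), and Dusp7, at 46.6 ± 9.11 and 61.6 ± 5.17 CPM (adjusted p = 0.186).

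None of 10 other FGF and ERK induced transcripts passed, with a median log2 fold change of 0.19. Phlda1, an inducible gene of growth factor signalling, stood at 24.7 ± 4.35 CPM in FGF2 embryos and 16.4 ± 1.42 CPM in vehicle embryos (SD, n = 3 each, edgeR adjusted p = 0.0711). Its values were 21.0, 23.6 and 29.4 CPM in FGF2 embryos 6, 7 and 8, against 17.9, 16.0 and 15.2 CPM in vehicle embryos. Here FGF2 8 was the highest of its group, unlike in Spry1 and Dusp6. Etv4, an ETS factor of the Pea3 group, stood at 8.96, 11.3 and 6.31 CPM in FGF2 embryos, against 4.63, 5.39 and 5.56 CPM in vehicle embryos (adjusted p = 0.111). Its FGF2 values were all higher, with FGF2 7 highest and FGF2 8 lowest, the order seen in Dusp6. Etv5 and Etv1, of the same group, were not higher. Etv5 stood at 33.5, 32.0 and 24.8 CPM in FGF2 embryos, all below the 51.0, 36.0 and 35.2 CPM of vehicle embryos. Its log2 fold change was -0.43 (edgeR adjusted p = 0.228). For Etv1 the groups overlapped, with a log2 fold change of -0.08 (edgeR adjusted p = 0.904).

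Genes with the most similar profile over the 6 embryos were sought for each called member among 11596 named genes that averaged 5 CPM or more. The measure was the root mean square difference in log2 CPM after centring each gene. Nearest to Spry1 were Asb4 (0.148) and Glis3 (0.186), a zinc finger transcription factor. Asb4 stood at 21.6, 23.1 and 12.5 CPM in FGF2 embryos, against 3.52, 4.11 and 4.48 CPM in vehicle embryos. Nearest to Spry2 were Anxa11 (0.0417), a calcium-binding annexin, and Gadd45a (0.0585), a growth arrest gene, and nearest to Dusp6 were Lrig3 (0.0824), a receptor inhibitor, and Etv4 (0.0858). The spans of Glis3 and Gadd45a overlap 3 and 1 other genes.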

How the data were processed

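RNA-seq of 6 embryos was used, 1 library each. The submitters' processing notes list bedtools 2.12.0, TopHat2 2.0.9, CASAVA 1.8 and Bowtie2 2.1.0.0, without roles, and the build NCBIM37. Use of strand in counting is not stated there. In the deposited count files stands, for each Ensembl gene, the whole number of alignments over the span from start to end, introns included, with the covered fraction of the span, which for the members ran from 24.7% upward and was not tested. Starts in the files count from 0 and are printed from 1. The authors' RPKM values, so called by file name, come from a tool not given here and were joined to 34290 genes by a symbol occurring once.

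The main test was edgeR's quasi-likelihood test (version 4.0.16, R 4.3.3) on the unaltered counts of the 6 libraries, without covariates, after filterByExpr and TMM scaling and with robust dispersions, adjusted by the Benjamini-Hochberg method over all 21983 genes. SE is the log2 fold change over the root of its F statistic. RPKM values were tested with limma 3.58.1 as log2(RPKM + 1), for genes with at least 1 RPKM in 3 libraries, and fold changes on that scale understate those of low genes. The alternatives, 19 in all and including DESeq2 1.42.0, voom with library weights, library scaling, filters, sex, the embryo number and leaving out each embryo, are given at the end. Sex was read from Y-linked and Xist reads. Ratios of members were compared by exact two-sided permutation over embryos. The labels do not say whether the embryos shared a litter, so p-values measure the spread between these libraries. Reads have no molecular identifiers.

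The members, gene lists and tests were chosen with earlier results of these data known. The named genes are the 10 members, called pathway genes (at most 4 a list, otherwise the 2 with the smallest p), the 2 most similar genes of each called member, and the 2 most abundant markers of a list or those at 0. Markers that lead a list are named where they bear on a result. Fgf8, Fgf18, Shh, Bmp4, Gsx1, Etv1, Etv5 and 4 dorsal markers were named after their values were seen. On simulated counts for this contrast (21983 genes), the test recovered 76 of 100 changes of 2-fold and 97 of 100 changes of 4-fold, and also called 12 unchanged genes.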

Additional observations from a re-analysis of the deposited data

How the results depend on the processing

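No member changed direction in any alternative. With all 6 embryos in the main test, 7 members and 4242 of 21983 genes had an unadjusted p under 0.05 (edgeR). The count of members called, 3 with all 6 embryos, was 0 to 4 when each embryo was left out (0.971% to 8.68% of all genes called). It was 5 with voom and library weights, where 10.2% of all genes were called. With DESeq2 it was 6, with Dusp4 as lower, where 9.76% of all genes were called. With sex as a covariate it was 0, and 5 members and 1886 of 21983 genes had an unadjusted p under 0.05 (edgeR). It was also 0 with log2(RPKM + 1) without a filter on low values (4 unadjusted, with limma). The count of all genes called, 799, was 218 to 1943 when each embryo was left out (1943 without FGF2 8 and 218 without vehicle 8), 5 with sex as a covariate, 2252 with voom, 2145 with DESeq2, 488 among genes overlapping no other span, 432 with log2(RPKM + 1), 431 with log2(RPKM + 0.1), and 0 with log2(RPKM + 1) without a filter, where 2192 genes had an unadjusted p under 0.05. The cause of these shifts was not tested, beyond the smaller number of genes tested (10826) without overlapping spans. With sex as a covariate, vehicle 7 is the only control that enters the FGF2 contrast. Halving the counts of vehicle 9 left the same 3 members called.

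The log2 ratio of Spry1 to Spry2 differed by 1.07 to 1.55 and that of Spry1 to Spry4 by 1.07 to 1.72 when each embryo was left out, and that of Dusp6 to Dusp4 by 1.21 to 1.72. For Spry2 to Spry4 the difference was -0.12 to 0.17 when each embryo was left out and -0.0077 from RPKM, against 0.04 from counts, and it changed sign without FGF2 6, FGF2 7 or vehicle 9.

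With the embryo number as a replicate block, 0 members were called, and 703 of all 21983 genes were. At an unadjusted p under 0.05 (edgeR) there were 6 members and 3116 genes. Only the numbers 7 and 8 occur in both groups, so FGF2 6 and vehicle 9 add nothing to that contrast. Deviations of same-numbered libraries from their group means correlated at -0.0603 and -0.00339, so the numbers were not taken as pairs. Depth limits Dusp5 most, at 39 to 157 reads per library.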
